A study of Rattus norvegicus with 12 samples.

Results

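The 8 genes described here encode subunits of voltage-gated sodium channels or a close relative of them, and were taken as the entries of the rat expression table whose gene name was Scn2b, Scn3b, Scn4b, Scn4a, Scn7a, Scn10a, Scn3a or Scn8a. All 8 were in the table, among 23526 entries with a gene name. The table holds 6 further sodium channel subunit genes, which are not described here. RNA sequencing was done on the right ventricle (RV) and left ventricle (LV) of 6 adult male Sprague-Dawley rats aged 3 to 4 months. The LV_H and RV_H libraries came from the hearts of 3 rats kept at 10% O2 in a hypobaric chamber for 2 weeks, and the LV_N and RV_N libraries from 3 rats housed in room air for the same time. Each rat gave 1 library from each ventricle, which makes 12 libraries in 4 groups of 3, and rats of equal number in the 2 exposures are different animals. All RNA came from whole tissue of the LV and RV free walls, so that fewer cells of a type and less RNA per cell cannot be told apart.

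A voltage-gated sodium channel opens when the membrane depolarizes and carries the fast inward current that starts the action potential of heart muscle, nerve and skeletal muscle. Its large alpha subunit forms the pore, and smaller beta subunits, which cross the membrane once and carry an immunoglobulin domain outside the cell, change its gating, its number at the surface and its attachment to neighbouring cells. Of the genes described, Scn2b, Scn3b and Scn4b encode beta subunits, Scn4a, Scn10a, Scn3a and Scn8a encode pore-forming alpha subunits, and Scn7a encodes a channel related to the alpha subunits that is known for sensing extracellular sodium. Chronic hypoxia raises the pressure against which the RV works, and the study set the ventricles and the exposures against each other.

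In hypoxia the beta subunit transcripts Scn4b and Scn3b moved in opposite directions in the RV: Scn4b fell 4.17-fold and Scn3b rose 4.23-fold. Both differed in the same directions between LV_H and LV_N, by 2.53-fold and 2.6-fold, without passing the test. Scn7a and Scn2b passed it in no comparison. The alpha subunit genes Scn4a, Scn10a and Scn3a were kept out of the test by a filter on low counts. In an edgeR fit without that filter they had no adjusted p below 0.29. Scn8a was too low for either fit. Levels are given as TPM, the abundance of a transcript relative to all transcripts of its library, which takes account of length and so can be set side by side between genes. Fold changes are from edgeR, on estimated counts scaled by the trimmed mean of M values (TMM), and a gene passed when its p, adjusted by Benjamini and Hochberg over the 13756 genes tested, was below 0.05.

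Over the 12 libraries the mean was 21.8 TPM for Scn4b, 4.07 TPM for Scn7a, 1.48 TPM for Scn3b, 0.299 TPM for Scn2b, 0.273 TPM for Scn3a, 0.12 TPM for Scn4a, 0.117 TPM for Scn10a and 0.00915 TPM for Scn8a. Scn4b stood above Scn7a in 12 of 12 libraries, Scn7a above Scn3b in 11 and Scn3b above Scn2b in 11. The order of Scn2b and Scn3a changed from library to library (Scn2b higher in 6 of 12), as did that of Scn4a and Scn10a (6 of 12). Scn3a was above Scn4a, and Scn10a above Scn8a, in all 12. The filter on low counts left 4 of the 8 genes in the test (Scn4b, Scn7a, Scn3b and Scn2b), and the other 4 are described below from their levels.

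The libraries held 21468274 to 39991848 estimated counts, at which 3 counts were worth 0.075 to 0.1397 TPM. The estimated counts were TPM times 1 constant for each library, so they are not read counts of a gene and their precision is not that of a count. Transcripts of the mitochondrial genome took 45.07% to 50.56% of a normoxic library and 38.26% to 44.1% of a hypoxic one, and scaling by library totals shifted the typical gene upward, with a median of 0.121 on the log2 scale in RV_H against RV_N and 0.173 in LV_H against LV_N. Fold changes are therefore relative to the TMM scale, and TPM is not. Markers of ventricular myocytes were abundant in all libraries (Myl2, a myosin light chain, from 4650 to 7010 TPM).

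The sequence upstream of the start of each gene was taken from RefSeq (GRCr8), where 7 of the 8 genes had a window. Scn3b had none, so its upstream sequence was not examined. Scn2b and Scn4b are neighbouring protein-coding genes on chromosome 8, and their windows are shown because the genes lie side by side while only Scn4b passed the test in hypoxia. Each line gives the 250 bases before the start, 5′ to 3′, on the strand of the gene, with CG dinucleotides in capitals. The Scn4b window lies at chr8:54343623-54343872 and the Scn2b window at chr8:54322133-54322382, both on the plus strand.
Scn4b: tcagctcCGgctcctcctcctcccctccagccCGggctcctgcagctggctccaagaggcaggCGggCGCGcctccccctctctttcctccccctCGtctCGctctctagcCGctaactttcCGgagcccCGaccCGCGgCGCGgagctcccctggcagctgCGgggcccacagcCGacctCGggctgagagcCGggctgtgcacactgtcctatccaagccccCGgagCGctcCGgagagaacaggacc
Scn2b: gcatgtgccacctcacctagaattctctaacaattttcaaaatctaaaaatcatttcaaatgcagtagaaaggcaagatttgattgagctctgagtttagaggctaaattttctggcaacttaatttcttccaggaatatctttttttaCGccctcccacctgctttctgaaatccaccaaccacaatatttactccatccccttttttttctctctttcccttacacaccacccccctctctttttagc
The Scn4b window was 71.6% G or C, above 93.6% of the 33469 windows of the table, and held 21 CG dinucleotides against a median of 5. The Scn2b window was 38.8% G or C, above 11.3% of windows, and held 1. Neither window, read on both strands, held ACGTG, a core of hypoxia response elements that occurred in 16.6% of all windows. Nor did either hold its variant GCGTG, which occurred in 25.9% of windows. The GC box core GGGCGG, present in 30.5% of windows, was also not found, and neither was the TATA box TATAAA, present in 12.9%. Such an absence says only that these letters were not in this stretch.

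Scn4b encodes a beta subunit that is joined to the alpha subunit by a disulfide bond and is expressed in heart and brain. It was the most abundant of the 8 genes in every library. Its level was 28.2, 29.8 and 26.6 TPM in LV_N rats 1, 2 and 3, and 44.3, 38.2 and 29 TPM in the RV_N libraries of those rats. In hypoxia it was 11.1, 7.69 and 18.8 TPM in LV_H rats 1, 2 and 4, and 8.79, 6.85 and 12.9 TPM in RV_H. Every hypoxic library was below every normoxic library, in each ventricle and across them, and rat 2 was the lowest of the hypoxic rats in both ventricles. The share of all genes whose groups lie apart without overlap was not counted, for this gene or for those below. The means were 28.2 ± 1.58 TPM in LV_N, 37.2 ± 7.67 TPM in RV_N, 12.5 ± 5.67 TPM in LV_H and 9.5 ± 3.07 TPM in RV_H (SD, n = 3 each).

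Scn3b encodes a beta subunit that binds the alpha subunit without a disulfide bond. Its level was 0.860, 0.847 and 1.06 TPM in LV_N rats 1, 2 and 3, and 0.485, 0.286 and 0.491 TPM in RV_N. In hypoxia it was 2.19, 4.01 and 1.53 TPM in LV_H rats 1, 2 and 4, and 1.41, 3.48 and 1.15 TPM in RV_H. Every hypoxic library was above every normoxic library of either ventricle, and the LV library was above the RV library in 6 of 6 rats. Rat 2 was the highest of the hypoxic rats in both ventricles, the same animal that was lowest for Scn4b. The means were 0.922 ± 0.118 TPM in LV_N, 0.421 ± 0.116 TPM in RV_N, 2.58 ± 1.29 TPM in LV_H and 2.01 ± 1.28 TPM in RV_H (SD, n = 3 each). These levels stand on 6.15 to 96.5 estimated counts per library, against 185 to 1160 for Scn4b.

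**Figure D1:**
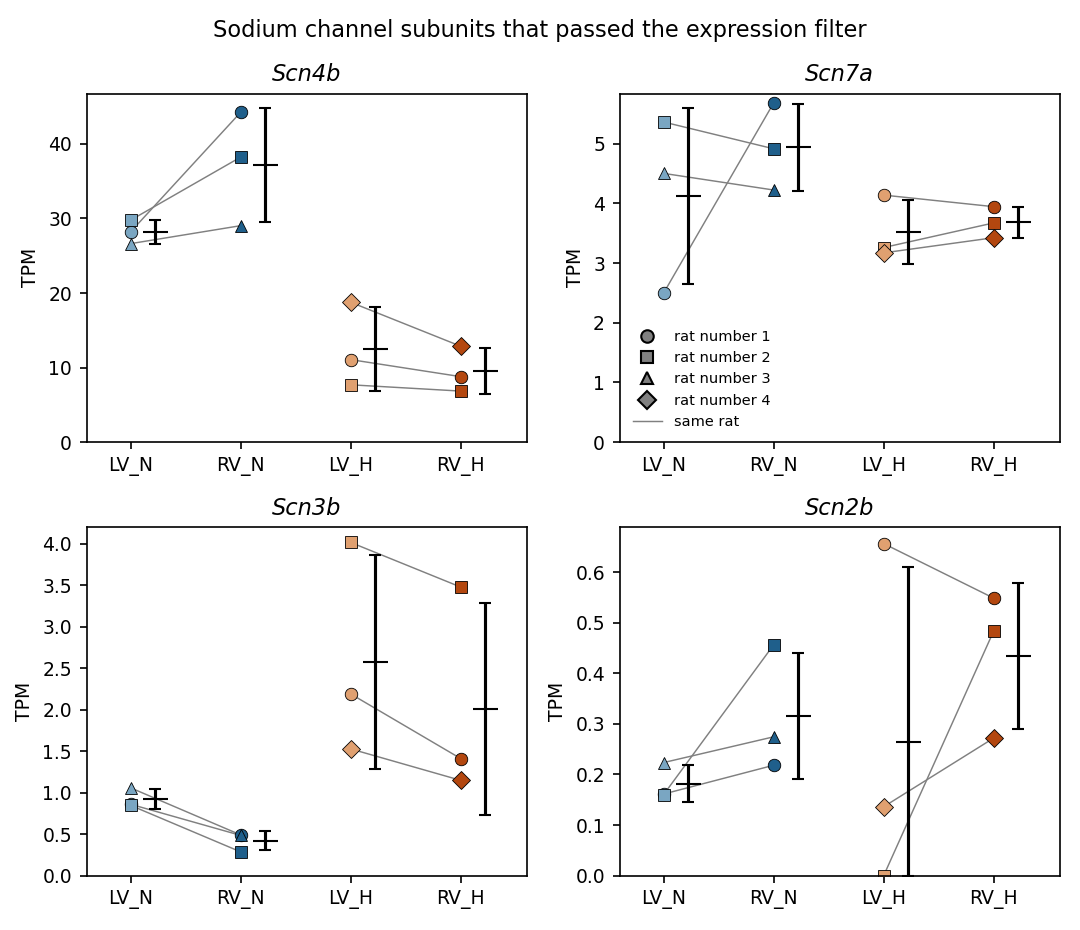
TPM of Scn4b, Scn7a, Scn3b and Scn2b (y axis, linear from 0) in the 12 libraries of the 4 groups (x axis). Symbols give the rat number, grey lines join the ventricles of a rat, and black bars give the mean and SD of 3 libraries (cut at 0 below). Scn4b ran from 6.85 to 18.8 TPM in hypoxia and from 26.6 to 44.3 TPM in normoxia, Scn3b from 1.15 to 4.01 TPM and from 0.286 to 1.06 TPM.

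The question of what hypoxia changed in the RV was addressed by RV_H against RV_N. There 1 of the 4 genes tested was higher and 1 was lower, while 7.43% of all genes tested were higher and 7.60% lower. Scn4b was lower with a log2 fold change of -2.06 ± 0.33 (SE, edgeR adjusted p = 0.00569) and Scn3b was higher with 2.08 ± 0.50 (SE, edgeR adjusted p = 0.0219). Scn7a had -0.54 ± 0.22 (adjusted p = 0.117) and Scn2b 0.29 ± 0.75 (adjusted p = 0.836) in the same edgeR fit. Scn4b passed under all 18 alternative settings and omissions tried, with a log2 fold change between -2.56 and -1.8. Scn3b passed under 14 of 18 and did not pass without RV_N rat 1 (edgeR adjusted p = 0.0751), RV_N rat 2 (0.0651), RV_N rat 3 (0.0651) or RV_H rat 2 (0.0962, with a log2 fold change of 1.54).

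In LV_H against LV_N, 0 of the 4 genes passed the edgeR test, while 1.37% of all genes tested did; 2 of the 4 had an unadjusted p below 0.05 (17.6% of all genes), and 1 passed in DESeq2. That gene was Scn4b, with a log2 fold change of -1.34 ± 0.32 (SE, edgeR adjusted p = 0.0707, DESeq2 adjusted p = 0.00336). It also passed in edgeR without LV_H rat 4, whose 18.8 TPM was the highest hypoxic level (log2 fold change -1.75, adjusted p = 0.033), and over all its alternatives the adjusted p ran from 0.00105 to 0.186. Scn3b had 1.38 ± 0.46 (edgeR adjusted p = 0.162), Scn7a -0.39 ± 0.22 (0.386) and Scn2b 0.35 ± 0.84 (0.871).

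Whether hypoxia acted differently on the ventricles was tested as the difference between its effects in RV and LV. No gene passed this edgeR test, of the 4 or of all genes tested (0%), and 0 of the 4 had an unadjusted p below 0.05 (7.6% of all genes) or passed in DESeq2. The difference on the log2 scale was -0.72 ± 0.45 for Scn4b (SE, edgeR adjusted p = 0.741) and 0.70 ± 0.68 for Scn3b (adjusted p = 0.841). With the rat as a block, which sets the ventricles of a heart against each other, it was -0.69 ± 0.16 for Scn4b (SE, edgeR adjusted p = 0.261) and 0.75 ± 0.27 for Scn3b (adjusted p = 0.378), and both had an unadjusted p below 0.05, as did 12.3% of all genes. That both genes passed in the RV and not in the LV is therefore not shown to be a difference between the ventricles.

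Over both ventricles, hypoxia against normoxia gave 2 of 4 genes past the edgeR test, while 21.7% of all genes tested passed. The log2 fold change was -1.70 ± 0.23 for Scn4b (SE, 3.25-fold lower, edgeR adjusted p = 0.00143) and 1.73 ± 0.34 for Scn3b (3.32-fold higher, adjusted p = 0.00689). This fit takes the ventricles of a rat as separate samples. With the RV and LV counts of each rat summed, so that 6 rats were compared, 7.77% of 14240 genes passed, and 1 of the 4. Scn4b then had -1.69 ± 0.30 (edgeR adjusted p = 0.0281) and Scn3b 1.64 ± 0.39 (adjusted p = 0.0509), which did not pass.

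**Figure D2:**
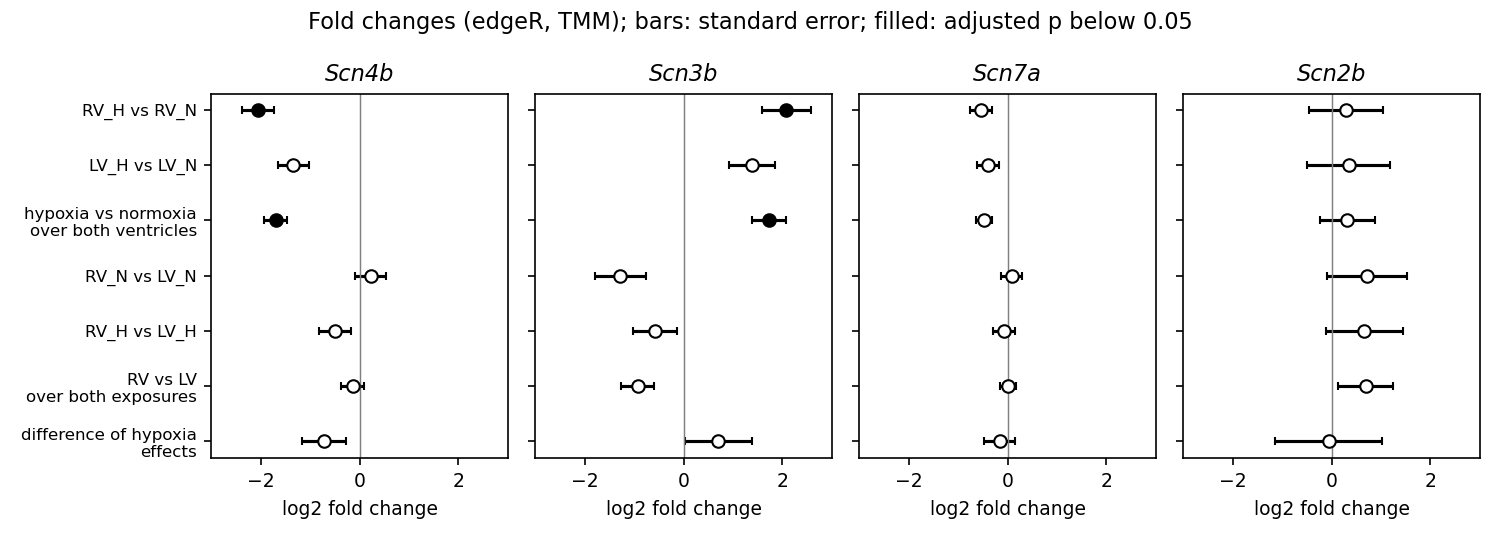
Log2 fold change (x axis) of Scn4b, Scn3b, Scn7a and Scn2b in 7 comparisons (y axis), from edgeR with TMM scaling. Bars give the SE and filled points an adjusted p below 0.05. The filled points are Scn4b and Scn3b in RV_H against RV_N and over both ventricles, at -2.06, -1.70, 2.08 and 1.73.

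The ratio of Scn4b to Scn3b within a library does not depend on the scaling of libraries. It was 32.8, 35.2 and 25.2 in LV_N rats 1, 2 and 3, and 91.3, 134 and 59.2 in RV_N. In hypoxia it was 5.06, 1.92 and 12.3 in LV_H rats 1, 2 and 4, and 6.23, 1.97 and 11.2 in RV_H. The highest hypoxic ratio was thus below the lowest normoxic one. In the normoxic rats the RV had the higher ratio in each animal, and in the hypoxic rats the ventricles of an animal lay closer to each other than to another animal. Scn4b made up 81.0% to 87.8% of the summed TPM of the 8 genes in LV_N and 84.3% to 86.0% in RV_N, and 50.3% to 77.7% in LV_H and 45.9% to 70.6% in RV_H. Scn3b made up 0.6% to 3.2% in normoxia and 6.3% to 26.2% in hypoxia.

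**Figure D3:**
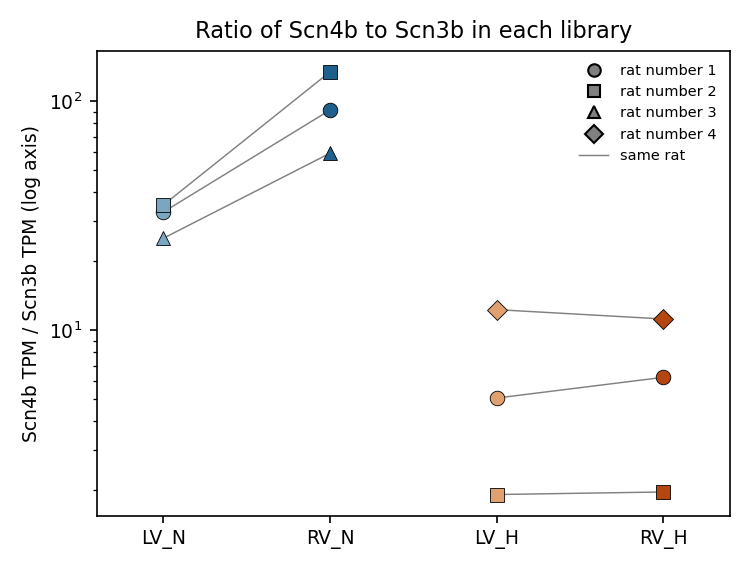
Ratio of Scn4b TPM to Scn3b TPM (log axis) in each library by group (x axis), with symbols for the rat number and grey lines joining the ventricles of a rat. The 6 hypoxic libraries lie between 1.92 and 12.3 and the 6 normoxic libraries between 25.2 and 134.

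Between the ventricles at equal exposure, 0 of the 4 genes passed in RV_N against LV_N (0.0218% of all genes tested, edgeR) or in RV_H against LV_H (0.451%), and DESeq2 also called 0 in each. At an unadjusted p below 0.05 there was 1 in normoxia, Scn3b (9.29% of all genes), and 0 in hypoxia (16.7%), while with the rat as a block there were 1 in normoxia (1939 of all 13756 genes) and 2 in hypoxia, Scn3b and Scn4b (3024 of 13756), none past the adjusted threshold. Scn3b had a log2 fold change of -1.28 ± 0.52 in RV_N against LV_N (SE, edgeR adjusted p = 0.487) and -0.58 ± 0.44 in RV_H against LV_H (0.555). Scn4b had 0.22 ± 0.31 (0.884) and -0.50 ± 0.33 (0.479). In TPM, Scn4b was higher in RV than in LV in each of the 3 normoxic rats, with ratios of 1.57, 1.28 and 1.09, and lower in each of the 3 hypoxic rats, with ratios of 0.794, 0.89 and 0.686. On the TMM scale the normoxic rat 3 had a log2 ratio of -0.03, so the normoxic direction held in 2 of 3 rats.

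Over both exposures, RV against LV gave 0 of 4 genes in the edgeR fit that leaves the rat aside (1.47% of all genes tested; 1 of 4 at an unadjusted p below 0.05, where 17.8% of all genes were; 0 of 4 in DESeq2). With the rat as a block, 3.50% of all genes passed, and Scn3b among them with a log2 fold change of -0.94 ± 0.14 (SE, edgeR adjusted p = 0.0247), against -0.93 ± 0.34 (adjusted p = 0.187) without the block. Scn3b was lower in the RV in 6 of 6 rats. On the TMM scale its log2 ratio of RV to LV was -1.11, -1.78 and -1.21 in normoxic rats 1, 2 and 3, and -0.59, -0.71 and -0.36 in hypoxic rats 1, 2 and 4.

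Scn2b encodes the other beta subunit that is joined to the alpha subunit by a disulfide bond. Its level was 0.161, 0.160 and 0.224 TPM in LV_N rats 1, 2 and 3, and 0.218, 0.456 and 0.274 TPM in RV_N. In hypoxia it was 0.656, 0 and 0.136 TPM in LV_H rats 1, 2 and 4, and 0.548, 0.484 and 0.272 TPM in RV_H. The groups overlapped, apart from LV_N and RV_H, and LV_H held both the highest library of all and the only one listed at 0. With at most 14.8 estimated counts in a library, the direction between LV_H and LV_N turned when LV_H rat 1 was left out (log2 fold change -1.47 in place of 0.35). The RV was above the LV in 5 of 6 rats.

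Scn7a encodes a sodium channel relative found in glia, Schwann cells and other tissues, which does not open with voltage as the alpha subunits do. Its level was 2.50, 5.37 and 4.50 TPM in LV_N rats 1, 2 and 3, and 5.68, 4.92 and 4.23 TPM in RV_N. In hypoxia it was 4.14, 3.26 and 3.17 TPM in LV_H rats 1, 2 and 4, and 3.95, 3.67 and 3.43 TPM in RV_H. The libraries of RV_H lay below those of RV_N without overlap. In that comparison Scn7a had an unadjusted p of 0.0302 in edgeR and an adjusted p of 0.117, and 31.2% of all genes had an unadjusted p below 0.05. LV_N rat 1 lay below all others, so that LV_N and LV_H overlapped. Hypoxia against normoxia over both ventricles gave a log2 fold change of -0.47 ± 0.16 (SE, edgeR adjusted p = 0.0539), and without LV_N rat 1 it was -0.58 (adjusted p = 0.0092). Per rat, with both ventricles summed, the value was -0.47 ± 0.11 (edgeR adjusted p = 0.0524).

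The window before the start of Scn7a (GRCr8, chr3:71846285-71846534, minus strand) is shown because it held, unlike those of Scn4b and Scn2b, 1 match to GCGTG and 1 to GGGCGG, both on the strand opposite to the printed one.
Scn7a: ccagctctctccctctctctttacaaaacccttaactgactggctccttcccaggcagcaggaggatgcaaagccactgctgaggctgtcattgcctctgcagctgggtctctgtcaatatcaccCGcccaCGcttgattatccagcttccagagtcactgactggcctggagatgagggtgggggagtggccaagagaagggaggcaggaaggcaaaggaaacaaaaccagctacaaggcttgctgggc
It was 56% G or C and held 2 CG dinucleotides, in capitals. The 2 matches overlap by 1 base. GCGTG alone was also found in the windows of Scn10a and Scn3a, and GGGCGG in that of Scn8a.

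The 4 alpha subunit genes stood near or below a few estimated counts, which are scaled TPM and do not give the number of reads. Scn4a, the alpha subunit of skeletal muscle, was 0.088, 0.078 and 0.091 TPM in LV_N rats 1, 2 and 3, and 0.234, 0.192 and 0.144 TPM in RV_N. It was 0.142, 0.094 and 0.095 TPM in LV_H rats 1, 2 and 4, and 0.089, 0.064 and 0.122 TPM in RV_H. The RV_N libraries were above all LV_N, LV_H and RV_H libraries, on no more than 5.96 estimated counts each, and how many of all genes did so was not counted. In the edgeR fit without the filter on low counts, Scn4a had a log2 fold change of -1.05 ± 0.56 in RV_H against RV_N (SE, adjusted p = 0.29), which was the lowest adjusted p of Scn4a, Scn10a and Scn3a in any comparison. Of 18 skeletal muscle markers in the table, Myog and Pax7 were at 0 in all libraries, and the fast myosin Myh4 averaged 0.181 TPM in LV_N, 0.164 TPM in RV_N, 0.116 TPM in LV_H and 0.117 TPM in RV_H. Others were higher, and Chrna1 averaged 10.8 TPM in LV_N, 6.55 TPM in RV_N, 4 TPM in LV_H and 2.4 TPM in RV_H. Of 8 tested, 1 rose and 0 fell in RV_H against RV_N (7.43% and 7.60% of all genes). In LV_H against LV_N 1 rose and 0 fell (1.37% of all genes passed). In both it was Mybpc2 (1.75 ± 0.23 and 1.38 ± 0.21, SE, edgeR adjusted p = 0.00342 and 0.0144). The summed level of the list, 795.3 to 1030 TPM in LV_N, 383.6 to 838.5 TPM in RV_N, 1068 to 2889 TPM in LV_H and 963.9 to 3392 TPM in RV_H, was nearly all Acta1, an actin that heart muscle also expresses.

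Scn10a, an alpha subunit best known from sensory neurons, was 0.093, 0.132 and 0.072 TPM in LV_N rats 1, 2 and 3, and 0.173, 0.055 and 0.097 TPM in RV_N. It was 0.186, 0.128 and 0.206 TPM in LV_H rats 1, 2 and 4, and 0.088, 0.099 and 0.081 TPM in RV_H. LV_H lay above RV_H in each of the 3 hypoxic rats without overlap, on 1.87 to 5 estimated counts, and the log2 fold change of RV_H against LV_H was -0.95 ± 0.62 (SE, edgeR without the filter, adjusted p = 0.56). How many of all genes lay apart in this way was not counted, so the lack of overlap is only a description.

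Scn3a, an alpha subunit of the developing nervous system, was 0.235, 0.380 and 0.167 TPM in LV_N rats 1, 2 and 3, and 0.398, 0.398 and 0.171 TPM in RV_N. It was 0.305, 0.095 and 0.248 TPM in LV_H rats 1, 2 and 4, and 0.319, 0.250 and 0.314 TPM in RV_H. The groups overlapped, while the RV library was above the LV library in 6 of 6 rats in TPM and in 4 of 6 on the TMM scale, where the normoxic rats 2 and 3 had log2 ratios of -0.11 and -0.12. The log2 fold change of RV against LV over both exposures was 0.27 ± 0.37 (SE, edgeR without the filter, adjusted p = 0.848). Scn8a, an alpha subunit of neurons, lay between 0 and 0.0185 TPM and was at 0 in 3 libraries, 2 of LV_N and 1 of RV_N. Its 12 values stood on at most 0.505 estimated counts, below 3 estimated counts in every library, and no fold change is given.

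**Figure D4:**
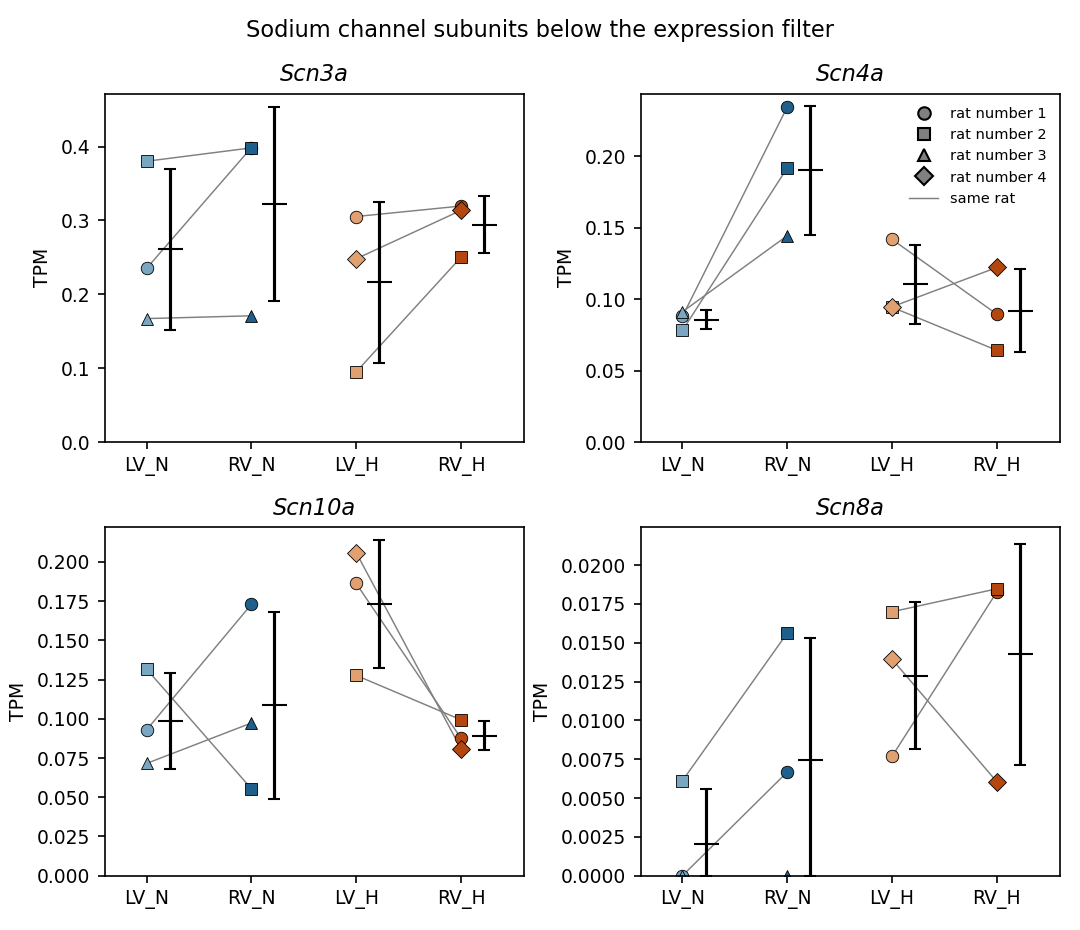
TPM of Scn3a, Scn4a, Scn10a and Scn8a (y axis, linear from 0, with a scale of its own for each gene) in the 12 libraries by group (x axis). Symbols give the rat number, grey lines join the ventricles of a rat, and black bars give the mean and SD of 3 libraries (cut at 0 below). Scn3a reaches 0.398 TPM, Scn4a 0.234 TPM, Scn10a 0.206 TPM and Scn8a 0.0185 TPM.

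The genes whose level followed each subunit most closely were sought for the 3 subunits with a mean of at least 1 TPM, by Pearson's r of log2(TPM + 1) over the 12 libraries, among 10650 genes. The 12 libraries come from 6 rats and share their exposure, so r is given as a description. The genes were picked by r over these same libraries, which differ in exposure. Their fold changes and p are therefore no independent support. For Scn4b the closest were Fabp3, the fatty acid-binding protein of heart muscle (r = 0.985), Dhrs4, a reductase (0.975), and Acad10, of the acyl-CoA dehydrogenase family (0.974). In RV_H against RV_N these had log2 fold changes of -0.70 ± 0.14, -0.84 ± 0.15 and -1.12 ± 0.15 (SE, edgeR adjusted p = 0.011, 0.00796 and 0.00347), against -2.06 for Scn4b. For Scn3b the closest were Slc25a26, a mitochondrial carrier of S-adenosylmethionine (0.973), Sorbs2, an adaptor protein of the sarcomere's Z-disc (0.963), and Tsc22d1, a transcriptional regulator (0.96). Of these, Sorbs2 (0.72 ± 0.21, edgeR adjusted p = 0.041) and Tsc22d1 (1.28 ± 0.27, adjusted p = 0.0135) rose in RV_H against RV_N, and Slc25a26 had 0.65 ± 0.21 (adjusted p = 0.056). For Scn7a they were Cdh19, a cadherin of the Schwann cell lineage and one of the glial markers listed (0.897), the chemokine Cxcl14 (0.87) and Sos1, an activator of Ras (0.829). Cdh19 averaged 1.04 TPM in LV_N, 1.17 TPM in RV_N, 0.876 TPM in LV_H and 0.964 TPM in RV_H. In RV_H against RV_N none of these passed: Cdh19 had -0.39 ± 0.40, Cxcl14 -1.59 ± 0.58 and Sos1 -0.26 ± 0.09 (SE, edgeR adjusted p = 0.549, 0.0893 and 0.0825).

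Sodium channels of heart muscle are held in place and modulated by ankyrins, calmodulin, calmodulin-dependent kinase and proteins of the intercalated disc. Of 25 such partner genes tested, 2 rose and 5 fell in RV_H against RV_N (of all genes, 7.43% rose and 7.60% fell), with a median log2 fold change of -0.23 against -0.003 over all genes. The falls included Ank2 (-1.41 ± 0.27, edgeR adjusted p = 0.00976) and Ank3 (-0.93 ± 0.19, adjusted p = 0.011), the ankyrins that anchor membrane channels. Camk2g, a calmodulin-dependent kinase (-0.66 ± 0.16, edgeR adjusted p = 0.0228), and Cxadr, an adhesion protein of the intercalated disc (-0.70 ± 0.19, adjusted p = 0.0306), also fell. Calm2, which encodes calmodulin, rose (0.48 ± 0.10, edgeR adjusted p = 0.0138). The fold changes of Scn4b and Scn3b were larger in size than those of Ank2, Ank3, Camk2g, Cxadr and Calm2.

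In LV_H against LV_N, 0 of the 25 partner genes rose and 1 fell, where 1.37% of all genes passed in either direction. The median log2 fold change was -0.17 against 0.008 over all genes. The gene that fell was Gpd1l, a regulator of the cardiac sodium current (-0.64 ± 0.13, edgeR adjusted p = 0.0486). Over both ventricles 3 rose and 9 fell (21.7% of all genes passed in either direction), with Ank3 at -0.81 ± 0.13 and Gpd1l at -0.53 ± 0.09 (SE, edgeR adjusted p = 0.0031 and 0.00436). That fit takes the ventricles of a rat as separate samples. With the counts of each rat summed, 7.77% of all genes passed, and the partner genes were not examined in that way. Between the ventricles, 1 of the 25 passed in RV_H against LV_H, where 0.451% of all genes did. It was Slmap, a sarcolemmal membrane protein, lower in the RV (-0.68 ± 0.12, edgeR adjusted p = 0.0456). Over both exposures 2 passed, where 1.47% of all genes did. Slmap (-0.49 ± 0.08, edgeR adjusted p = 0.0243) and the desmosomal Pkp2 (-0.33 ± 0.05, 0.0219) were lower in the RV. In RV_N against LV_N 0 of the 25 passed in edgeR, where 0.0218% of all genes did.

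Sodium that enters through the channels is pumped out by the sodium pump or exchanged for other ions. Of 14 pump, exchanger and leak channel genes tested, 1 rose and 2 fell in RV_H against RV_N (7.43% and 7.60% of all genes), with a median log2 fold change of -0.25. Atp1b3, a beta subunit of the pump, was the one that rose, with a log2 fold change of 0.53 ± 0.10 (SE, edgeR adjusted p = 0.0087), and averaged 33.6 TPM in RV_N and 53 TPM in RV_H. In LV_H against LV_N 0 of the 14 passed in edgeR, where 1.37% of all genes did, with a median of -0.13. Over both ventricles 1 rose and 4 fell, where 21.7% of all genes passed, in the fit that takes the ventricles of a rat as separate samples.

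**Figure D5:**
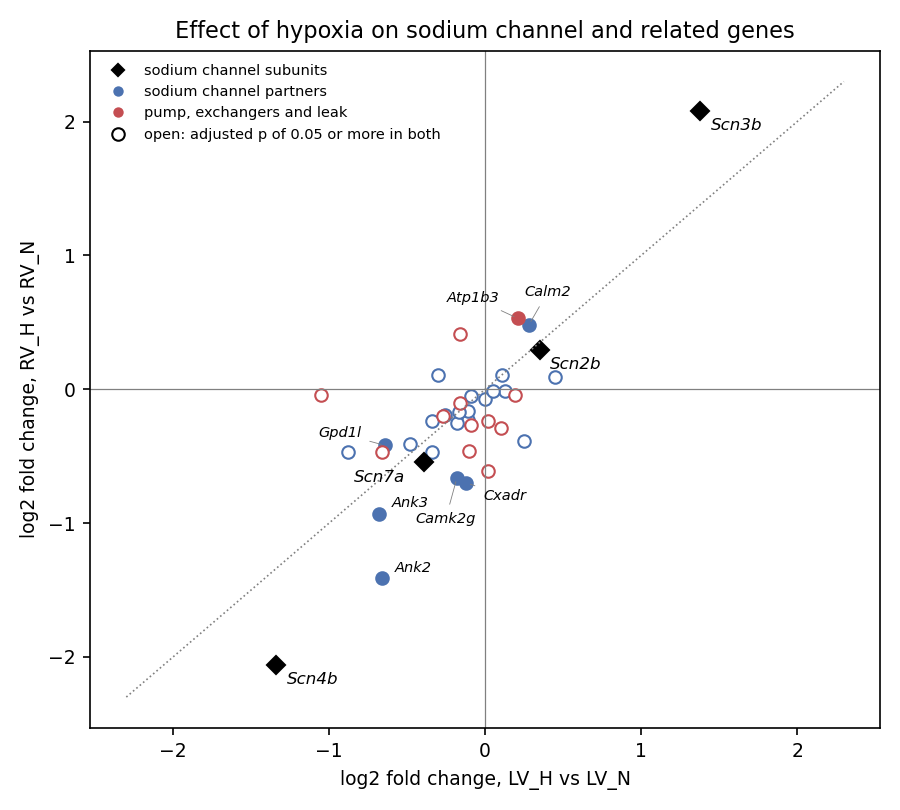
Log2 fold change of hypoxia in the RV (y axis) against that in the LV (x axis), from edgeR, for the 4 subunits tested, 23 partner genes and 12 pump, exchanger and leak genes. Filled circles passed in at least 1 ventricle and are named, and the dotted line marks equal change. Scn4b (-2.06 and -1.34) and Scn3b (2.08 and 1.38) lie farther from 0 than the other genes.

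Markers of the cell types that could hold these transcripts were set beside the changes of Scn4b and Scn3b, and their counts stand against 7.43% of all genes that rose and 7.60% that fell in RV_H against RV_N, and 1.37% that passed in LV_H against LV_N. Of 16 myocyte markers, 0 rose and 4 fell in RV_H against RV_N, with a median log2 fold change of -0.32, and 0 passed in LV_H against LV_N in edgeR, with a median of -0.07. Their summed level was 66700 to 75060 TPM in LV_N, 71310 to 73550 TPM in RV_N, 72140 to 82230 TPM in LV_H and 62200 to 68790 TPM in RV_H. The 4 that fell were Atp2a2 (-0.86), Myh6 (-1.43), Tnnt2 (-0.42) and Ckm (-0.58). Of 13 markers of the conduction system, 2 rose (Cacna1g and Gjc1) and 1 fell (Kcnj3) in RV_H against RV_N, and Pcp4 alone rose in LV_H against LV_N. Their summed level was 54.25 to 75.65 TPM in LV_N, 69.18 to 81.79 TPM in RV_N, 49.38 to 87.48 TPM in LV_H and 61.83 to 97.2 TPM in RV_H. The part of these markers in the changes of Scn4b and Scn3b was not tested.

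Markers of neurons were set beside Scn3b, Scn3a, Scn8a and Scn10a. Of 16 in the table, Chat, Chrna3, Slc18a3 and Npy were at 0 in all libraries and 5 were tested, of which 1 rose in RV_H against RV_N (Prph, 0.63 ± 0.18, edgeR adjusted p = 0.0358) and 0 passed in LV_H against LV_N. Over both ventricles 3 of the 5 rose in hypoxia (Uchl1, Prph and Tubb3), where 21.7% of all genes passed in either direction. That fit takes the ventricles of a rat as separate samples. The summed counts of each rat were not examined for these markers. The summed level of the 16 neuron markers was 3.657 to 4.991 TPM in LV_N, 4.947 to 6.244 TPM in RV_N, 5.433 to 10.37 TPM in LV_H and 7.194 to 13.54 TPM in RV_H. Within each ventricle it was higher in hypoxia, while RV_N and LV_H overlapped. In RV against LV over both exposures, the 5 tested had a median log2 fold change of 0.2 against -0.003 over all genes. Of these 5, 0 passed in edgeR, where 1.47% of all genes did. Of 12 Schwann cell and glia markers tested, 0 passed in RV_H against RV_N or LV_H against LV_N in edgeR. Over both ventricles, with those of a rat again taken as separate samples, 1 of the 12 rose (Mal, 0.85 ± 0.23, edgeR adjusted p = 0.0263) and 0 fell. The 15 glial markers in the table summed to 10.7 to 21.06 TPM in LV_N, 16.68 to 24.57 TPM in RV_N, 11.95 to 18.51 TPM in LV_H and 20.56 to 23.99 TPM in RV_H. Among other cells, fibroblast markers had a median log2 fold change of 0.86 in RV_H against RV_N (4 of 11 rose and 1 fell) and macrophage markers 0.72 (4 of 11 rose). The part of any of these in the changes of the subunits was not tested.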

How the data were processed

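Polyadenylated RNA of 12 rat ventricle libraries was sequenced on 1 lane. The authors checked reads with FastQC and ran kallisto 0.43.1 against the Ensembl rat transcriptome (Rnor 6.0), and tximport gave gene values. The deposited TPM values give the abundance of each gene relative to its library. The deposited estimated counts are TPM times a constant for each library, as found from the values. At equal TPM a long gene is thus given no more of them than a short one, whatever its reads. Of 23553 entries, 27 named only by a number were left out (0.0408% to 0.0621% of counts).

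Estimated counts were rounded, filtered with filterByExpr (13756 genes) and scaled by TMM (factors 0.853 to 1.206). Quasi-likelihood F tests (edgeR 4.0.16, R 4.3.3) used a mean for each of 4 groups, with 8 residual degrees of freedom, and p was adjusted by Benjamini and Hochberg over all genes tested (threshold 0.05). The SE was taken as the absolute log2 fold change over the root of F. Members that the filter removed were fitted without it (18703 genes).

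Alternatives were RLE factors, library totals, the likelihood ratio test, DESeq2 1.42.0, other filters, counts not rounded, limma 3.58.1 on log2(TPM + 1) and log2(TPM + 0.1), each library left out, and the replicate block. By the study's methods both ventricles of a rat were taken, and the sample names give the number of the rat. Residuals of RV and LV libraries of the same rat correlated across genes with r of 0.037, 0.14 and 0.159 (normoxic rats 1, 2 and 3) and 0.173, 0.089 and 0.213 (hypoxic rats 1, 2 and 4), against at most 0.042 between different rats. Normoxic rat 1 thus did not stand above the pairs of different rats. The block by rat has 4 residual degrees of freedom.

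The genes and lists were chosen with earlier results of these data known. Named were the 8 subunits, up to 4 called genes of each related list per comparison with the smallest adjusted p, and the 3 genes most alike to each subunit of at least 1 TPM; Camk2g and Cxadr were added after their values were seen, and 4 called genes of these lists are not reported here. Promoter windows are from RefSeq (GRCr8).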

Additional observations from a re-analysis of the deposited data

How the results depend on the processing

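Among log2 fold changes of the subunits in the 7 comparisons, 600 values over all alternatives kept direction and side of the threshold, 28 turned direction, 8 came to pass and 5 ceased to pass. Counts of subunits that passed moved as follows. In LV_H against LV_N the count was 1 in place of 0 with the likelihood ratio test, DESeq2, limma on log2(TPM + 1) and the replicate block by number, in each case Scn4b, and 0 to 1 with 1 library left out. In RV_H against RV_N it was 1 to 2 with 1 library left out. RV against LV over both exposures gave 1 in place of 0 with the replicate block by rat (Scn3b), and hypoxia over both ventricles gave 1 in place of 2 with the counts of each rat summed, an alternative chosen after seeing the data, and 3, Scn7a added, with the likelihood ratio test and without LV_N rat 1. The paired fit by rat changed no other call. The block by number joins different rats across the exposures, which the labels do not pair. Directions turned for values that had not passed. Scn10a in RV_N against LV_N was 0.04 with limma on log2(TPM + 0.1). Scn7a in RV_H against LV_H was 0.07 with library totals and 0.05 and 0.07 with limma at a pseudocount of 1 and 0.1. Scn2b in LV_H against LV_N was -0.10 with limma at 0.1, and its difference of hypoxia effects was 0.09 with counts not rounded, with or without the filter, 0.46 with limma at 0.1 and 0.35 with the replicate block. Scn4b in RV against LV over both exposures was 0.02 with limma at either pseudocount. With 1 library left out, log2 fold changes ranged from -0.15 to 0.31 (Scn7a, RV_N against LV_N), -1.13 to 0.08 (Scn3b, RV_H against LV_H), -1.47 to 0.88 (Scn2b, LV_H against LV_N), -0.59 to 1.77, -0.38 to 0.08 and -0.06 to 0.5 (Scn2b, Scn7a and Scn3a, difference of hypoxia effects), -0.34 to 0.06 and -0.11 to 0.12 (Scn4b and Scn7a, RV against LV over both exposures) and -0.58 to 0.58 (Scn2b, hypoxia over both ventricles). The cause of these shifts was not tested. With 3 rats a group and estimated counts that follow TPM and not reads, changes of Scn2b and of the subunits below it could have been missed. This holds not only for small changes. The SE of the log2 fold change of Scn2b was 0.75 in RV_H against RV_N and 0.84 in LV_H against LV_N.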
